A study of Mus musculus with 16 samples.

Results

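The unfolded protein response genes described here are 33 genes of the endoplasmic reticulum (ER): the folding chaperones, disulfide enzymes, degradation machinery and translocation channel of the ATF6 and XBP1 arms, with the stress sensors themselves. Targets of the ATF4 arm were left out of the set. The members were given as a list of gene symbols, matched to 33 of the 54838 gene identifiers in the count tables. All 33 passed the filter on low counts and were among the 12612 genes tested. The cells were mouse bone marrow-derived macrophages, grown from marrow in medium conditioned by L929 fibroblasts and stimulated without serum. All 16 libraries carry the genotype label B6.129P2-Apoetm1Unc/J, a line with a disrupted Apoe gene, and the strain label C57BL/6J. There were 4 groups of 4 libraries. TMP195+TNFα cells received TMP195, an inhibitor of class IIa histone deacetylases, at 5 µM for 1 h and then TNFα at 50 ng/ml for 24 h. TPCA-1+TNFα cells received TPCA-1, an inhibitor of the kinase IKK2, at 500 nM for 1 h and then the same TNFα. TNFα cells received 50 ng/ml TNFα for 24 h, and DMSO cells received the vehicle. Nothing in the labels tells if replicates are different mice, different cultures or repeats of one preparation, or if cells given TNFα alone also received DMSO. The p-values therefore measure the spread between libraries, which may be technical.

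Secretory and membrane proteins fold in the ER, and unfolded chains there activate the sensors IRE1 (Ern1), ATF6 and PERK (Eif2ak3). IRE1 splices Xbp1 mRNA into the form that encodes an active transcription factor, and ATF6 is cleaved into one. Both factors raise chaperones, components of ER-associated degradation and parts of the translocation channel, while PERK slows translation and raises ATF4. In macrophages this machinery serves cytokine secretion. Counts per gene do not separate spliced from unspliced Xbp1 mRNA and do not show ATF6 cleavage or PERK phosphorylation.

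Each library held 7489066 to 31596572 counted reads. TPCA-1+TNFα replicate 2 was the shallowest, with 44.0% of its reads unmapped. The other 15 libraries held at least 18562773 counted reads with at most 7.11% unmapped. Apoe, the gene of the genotype label, had 1–11 reads per library. Levels are given as CPM, which is each count relative to the TMM-scaled total of its library. All 14 macrophage markers were tested. Their summed level was 14110–19566 CPM in TMP195+TNFα libraries, 16027–23442 in TPCA-1+TNFα libraries, 19693–28412 in TNFα libraries and 19402–29831 in DMSO libraries, led by Lyz2 and Adgre1. Neutrophil markers summed to 81.9–112, 51.5–79.6, 127–161 and 39.3–77.8 CPM in the same order of groups. Of the 10, Ly6g, S100a9, Elane, Ngp and Retnlg were at 0, and Csf3r and S100a8 gave nearly all the reads. Dendritic cell markers, 8 in number, summed to 276–404, 73.9–114, 258–408 and 294–345 CPM, nearly all from Bst2, with Cd209a at 0. The 9 lymphocyte and plasma cell markers summed to 23.5–30.5, 32.4–63.4, 28.8–49.9 and 37.9–75.5 CPM. They were led by Ighm in the mean over all libraries, but by Sdc1 in TMP195+TNFα libraries. The 8 stromal and endothelial markers summed to 4.04–6.14, 15.7–40.0, 3.98–7.46 and 7.41–10.6 CPM, led by Pecam1, with Col3a1 at 0. The part of these marker differences in the members' changes was not tested.

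All members but Derl3 were well expressed. Per kilobase of exon, the mean over the groups ran from 0.314 CPM for Derl3 and 2.75 CPM for Eif2ak3 to 604 CPM for Calr and 654 CPM for Serp1, with a median of 33.2 CPM. Chaperones and lectins made up most of the top: Hspa5, Hsp90b1, Calr, Canx, Pdia3, P4hb and Serp1 exceeded 100 CPM per kilobase, and the sensors Ern1 and Eif2ak3 were below 10. The summed level of the 33 members was 11208 ± 846 CPM in TMP195+TNFα libraries and 11086 ± 1502 in TPCA-1+TNFα libraries (SD, n = 4 each). It was 11793 ± 707 in TNFα libraries and 11953 ± 758 in DMSO libraries, and the groups overlapped. Serp1 alone gave 2368, 2829, 3152 and 3719 CPM of these sums, in the same order, so the sums are weighted towards this gene. In each same-numbered set, the TMP195+TNFα library had a lower sum than the TNFα library, and that a lower sum than the DMSO library. Serp1 followed the same order in 4 of 4 sets, so the order of the sums does not stand for the other members. From DMSO to TNFα, 11 of the 33 members were higher in all 4 sets and 9 were lower in all 4. From TNFα to TMP195+TNFα these numbers were 16 and 5. Within groups the median coefficient of variation of a member was 8.42% for TMP195+TNFα, 15.9% for TPCA-1+TNFα, 10.1% for TNFα and 7.82% for DMSO. In bulk RNA, fewer cells of a type and less RNA per cell cannot be told apart.

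**Figure D1:**
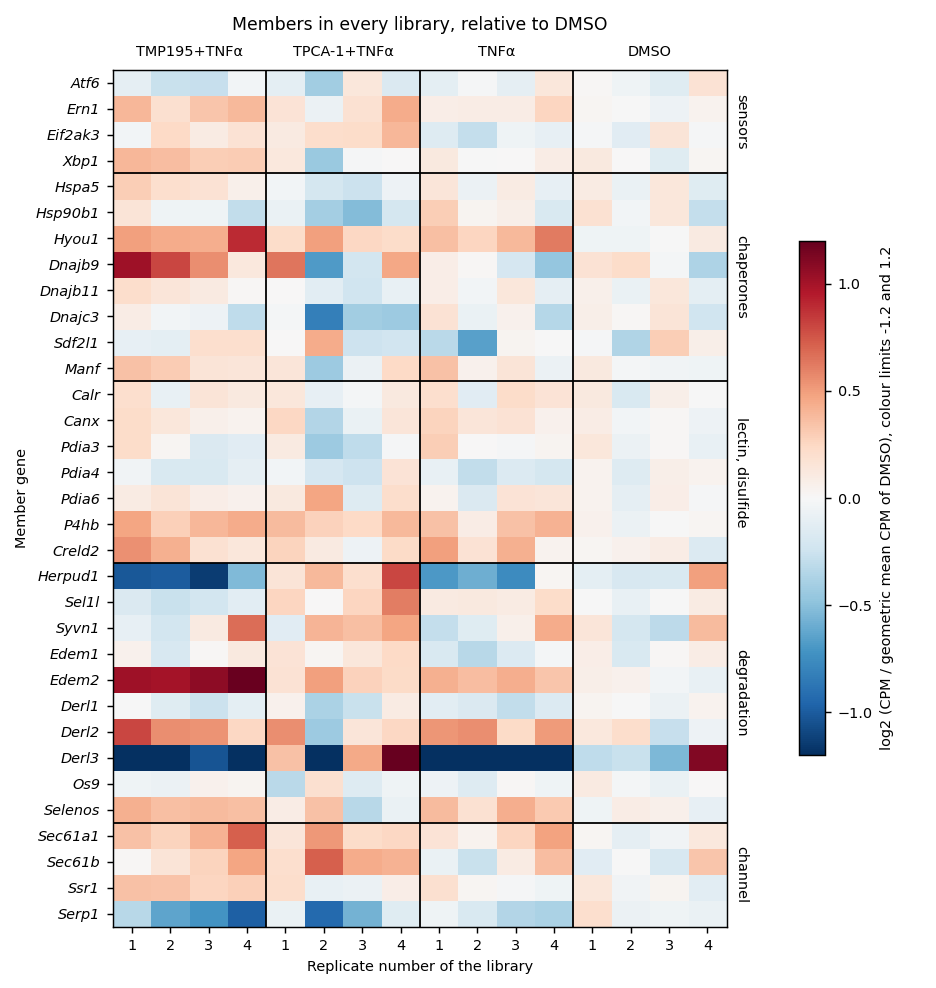
Level of the 33 members (down the page, grouped by role) in the 16 libraries (across, by group and replicate), as log2 of CPM over the geometric mean of the 4 DMSO libraries; red is higher and blue lower, with colours saturating at 1.2. Edem2 is redder in the 4 TMP195+TNFα libraries than in any other library, Herpud1 is blue there and in 3 of the 4 TNFα libraries, and most chaperone and disulfide enzyme cells are pale.

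Most members differed little between groups. Across 6 comparisons, 17 of the 33 (51.5%) passed an adjusted p of 0.05 in at least 1, against 52.9% of all genes tested. The changes were small: the 95% interval of the fold change lay wholly within 2-fold either way for 32 of 33 members in TNFα against DMSO, where 71.5% of all genes tested did. It did so for 31 members in TMP195+TNFα against TNFα (79.2% of all genes) and for 31 in TPCA-1+TNFα against TNFα (71.3%). The number was 30 for TMP195+TNFα against TPCA-1+TNFα (69.3% of all genes), 28 for TMP195+TNFα against DMSO (69.8%) and 32 for TPCA-1+TNFα against DMSO (66.7%). The median absolute log2 change of the members was 0.14, 0.15 and 0.15 in the first 3 of these comparisons. That of all genes tested was 0.25, 0.17 and 0.27. Neither these medians nor the shares of intervals were matched for expression level, on which the width of an interval depends. All tests were edgeR's quasi-likelihood F test, with p-values adjusted by Benjamini-Hochberg over the 12612 genes. The comparisons share libraries: the TNFα libraries stand in the first 3 of them, so a high or low one enters each.

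The promoters of these genes are known for the ER stress response element, which binds ATF6 together with NF-Y. RefSeq start-site windows of GRCm38.p6, 250 bases before to 50 after each start, were found for 28 members, and not for Manf, Atf6, Derl1, Sec61a1 and Hyou1. The exact element, CCAAT and CCACG with 9 free bases between them (ERSE), searched on both strands, was in the windows of 9 of these 28 members (32.1%), against 39 of all 32851 promoter windows (0.119%). The shorter element, ATTGG and CCACG with 1 free base between them (ERSE-II), was in 2 members (7.14%), against 12 windows of all (0.0365%). The motif TGACGTG (UPRE), to which XBP1 and ATF6 are known to bind, was in Hspa5 only (3.57% of the 28), against 661 windows of all (2.01%). The members' shares count genes, which had 29 windows, and the other shares count windows. The members were chosen as genes of the ATF6 and XBP1 arms, whose promoters are known for the element. Their higher shares of ERSE and ERSE-II thus go with that choice and are no result of these data. The matches are printed because they are a sequence feature that several of the chaperones share. Each is written 5′ to 3′ in the direction of the motif, with the fixed letters in capitals and the free positions in lower case. A match describes letters in the window and is not evidence of binding.
Hspa5, ERSE: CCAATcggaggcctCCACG
Hsp90b1, ERSE: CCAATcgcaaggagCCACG
Hsp90b1, ERSE, reverse strand: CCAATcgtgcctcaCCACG
Dnajc3, ERSE: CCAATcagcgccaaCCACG
Dnajb11, ERSE-II: ATTGGcCCACG
Calr, ERSE, reverse strand: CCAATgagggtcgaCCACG
Canx, ERSE: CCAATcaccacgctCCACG
Pdia6, ERSE: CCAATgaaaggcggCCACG
Creld2, ERSE, reverse strand: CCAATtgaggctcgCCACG
Syvn1, ERSE: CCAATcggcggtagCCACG
Derl3, ERSE, reverse strand: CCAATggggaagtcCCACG
Herpud1, ERSE-II: ATTGGgCCACG

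The element lay upstream of the start site in all of these but Dnajb11: from base 65 to base 47 before it in Hspa5, from 44 to 26 in Syvn1, and from 52 to 42 in Herpud1. The farthest was in Hsp90b1, which held 2 copies, from 212 to 194 and from 107 to 89 bases before the start. In Dnajb11 the match lay after the start, at transcribed bases 8 to 18. The windows of 4 members on which the results turn are printed in full, in the direction of the gene, with every ERSE, ERSE-II and TGACGTG match in capitals and all else in lower case. Hspa5 and Derl3 hold an ERSE (in Derl3 on the reverse strand, so that it reads as its reverse complement here). Herpud1 holds an ERSE-II, and Edem2 holds no exact match.
Hspa5 window, chr2:34771840-34772139, plus strand: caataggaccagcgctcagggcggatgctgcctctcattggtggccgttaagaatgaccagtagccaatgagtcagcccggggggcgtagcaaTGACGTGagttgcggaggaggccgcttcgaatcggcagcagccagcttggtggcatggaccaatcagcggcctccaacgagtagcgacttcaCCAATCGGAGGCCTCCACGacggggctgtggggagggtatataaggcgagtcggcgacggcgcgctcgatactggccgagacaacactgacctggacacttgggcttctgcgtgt
Herpud1 window, chr8:94386179-94386478, plus strand: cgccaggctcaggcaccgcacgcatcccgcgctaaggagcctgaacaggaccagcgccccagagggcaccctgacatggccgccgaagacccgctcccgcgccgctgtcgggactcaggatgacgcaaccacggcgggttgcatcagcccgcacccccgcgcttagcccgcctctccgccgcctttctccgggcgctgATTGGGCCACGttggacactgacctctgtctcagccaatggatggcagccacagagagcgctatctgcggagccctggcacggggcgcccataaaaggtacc
Derl3 window, chr10:75893148-75893447, plus strand: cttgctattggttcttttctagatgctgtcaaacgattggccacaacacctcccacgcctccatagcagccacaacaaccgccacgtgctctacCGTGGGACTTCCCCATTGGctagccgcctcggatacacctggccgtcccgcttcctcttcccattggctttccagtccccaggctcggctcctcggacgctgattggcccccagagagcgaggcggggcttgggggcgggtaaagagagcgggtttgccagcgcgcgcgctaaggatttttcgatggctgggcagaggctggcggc
Edem2 window, chr2:155729426-155729725, minus strand: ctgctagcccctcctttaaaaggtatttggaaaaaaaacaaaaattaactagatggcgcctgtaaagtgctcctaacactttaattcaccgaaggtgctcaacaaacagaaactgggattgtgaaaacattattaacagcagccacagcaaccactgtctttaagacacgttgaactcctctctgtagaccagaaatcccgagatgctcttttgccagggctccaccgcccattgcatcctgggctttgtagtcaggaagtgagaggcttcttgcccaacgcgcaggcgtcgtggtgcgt

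The first comparison asked what 24 h of TNFα did to these genes. Of the 33 members, 5 passed the test (15.2%), against 23.4% of all genes tested (10.9% higher and 12.4% lower). Edem2, Hyou1, P4hb and Selenos rose, by 1.24 to 1.33-fold, and the scarce Derl3 fell. The sensors and Xbp1, the chaperone Hspa5 and most other folding factors stayed within the spread between libraries or missed the threshold. The 10 degradation genes supplied 3 of the 5 calls.

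Among the sensors and factors, Xbp1, the transcription factor made from IRE1-spliced mRNA, had 221, 202, 204 and 216 CPM in TNFα libraries. It had 220.3, 203, 184 and 207 CPM in DMSO libraries. These groups overlapped, with a log2 change of 0.05 ± 0.10 (SE) and an adjusted p of 0.80. Atf6 had 108, 115, 109 and 129 CPM in TNFα libraries and 118, 113, 106 and 132 CPM in DMSO libraries. Its groups overlapped too (log2 change -0.02 ± 0.11, adjusted p = 0.92). Ern1, the RNA-splicing sensor, had 45.9, 46.3, 46.2 and 52.0 CPM in TNFα libraries and 44.1, 43.5, 41.6 and 44.8 CPM in DMSO libraries. Every TNFα library stood above every DMSO library, but the difference of 0.13 ± 0.10 missed the threshold (adjusted p = 0.42). Eif2ak3, the kinase that slows translation, had 14.3, 13.1, 15.3 and 14.8 CPM in TNFα libraries and 15.7, 14.5, 17.7 and 15.8 CPM in DMSO libraries. The groups overlapped, with a log2 change of -0.15 ± 0.11 (adjusted p = 0.37).

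Hspa5, the main Hsp70 chaperone of the ER and the standard marker of the response, had 919, 794, 890.1 and 777 CPM in TNFα libraries and 889, 788, 912 and 753 CPM in DMSO libraries. Its log2 change was 0.02, with a 95% interval of -0.19 to 0.22. Replicates 1 and 3 were the higher and 2 and 4 the lower in both groups, which covered nearly the same range. Hyou1, which exchanges the nucleotide of Hspa5, had 69.3, 64.5, 70.5 and 83.1 CPM in TNFα libraries and 52.1, 51.9, 53.8 and 58.3 CPM in DMSO libraries. All TNFα libraries stood above all DMSO libraries, a log2 change of 0.41 ± 0.12 (adjusted p = 0.0142). P4hb, the classical protein disulfide isomerase, had 491, 409, 491 and 516 CPM in TNFα libraries and 400.4, 368, 383 and 391 CPM in DMSO libraries. The groups did not overlap, with a log2 change of 0.31 ± 0.09 (adjusted p = 0.0158). Among the other chaperones and disulfide enzymes, log2 changes lay between -0.23 (Sdf2l1) and 0.29 (Creld2).

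The degradation genes moved both ways. Edem2, a mannosidase-like protein that marks misfolded glycoproteins for removal, had 102, 97.9, 103 and 95.6 CPM in TNFα libraries and 79.5, 78.8, 74.2 and 71.5 CPM in DMSO libraries. The groups were far apart relative to their spread, at a log2 change of 0.39 ± 0.09 (adjusted p = 0.00271). Selenos, a membrane selenoprotein that ties the extracting ATPase to the derlins, had 43.6, 38.0, 45.3 and 41.6 CPM in TNFα libraries and 32.1, 35.6, 34.9 and 31.2 CPM in DMSO libraries. The groups did not overlap, at a log2 change of 0.33 ± 0.12 (adjusted p = 0.0482). Derl3, the least expressed derlin, had 1, 5, 5 and 5 reads in TNFα libraries and 10, 11, 10 and 27 reads in DMSO libraries. The levels were 0.0568, 0.245, 0.164 and 0.241 CPM in TNFα libraries and 0.525, 0.542, 0.447 and 1.40 CPM in DMSO libraries. The groups did not overlap, at a log2 change of -1.98 ± 0.65 (adjusted p = 0.0355), and DMSO replicate 4 held about as many reads as the other 3 together. Herpud1, which organises the HRD1 ubiquitin ligase complex in the membrane, had 156, 167, 149 and 254 CPM in TNFα libraries and 231, 219, 221 and 352 CPM in DMSO libraries. Replicate 4 was high in both groups, so the groups overlapped and the difference of -0.50 ± 0.20 missed the threshold (adjusted p = 0.0901).

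Among DMSO, TNFα and TMP195+TNFα libraries the replicate numbers paired the samples, so the same model was also fitted with the number as a block. That fit held all 16 libraries, including the TPCA-1+TNFα libraries, which the numbers were not taken to pair. For TNFα against DMSO it called 9 members, 6 higher and 3 lower, where 32% of all genes tested passed (15.1% higher and 16.9% lower). Herpud1 joined the lower ones (-0.50 ± 0.07, adjusted p = 5.68e-05), being lower in TNFα in 4 of 4 pairs, by 0.39 to 0.57 on the log2 scale. Derl2 (0.45, adjusted p = 0.0276) and Creld2 (0.29, adjusted p = 0.0479) joined the higher ones, and Edem1 (-0.18, adjusted p = 0.0459) the lower. The unblocked count was 3 without TNFα replicate 1, without TNFα replicate 3 or without DMSO replicate 4. The Derl3 call ended without any of the TNFα libraries or DMSO replicate 4 (adjusted p up to 0.142), and the Selenos call in 12 of 16 leave-outs (up to 0.124), whereas Edem2, Hyou1 and P4hb stayed past the threshold in each. The P4hb call ended with no filter on low counts (adjusted p = 0.0884), as did the Selenos call (0.106).

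**Figure D2:**
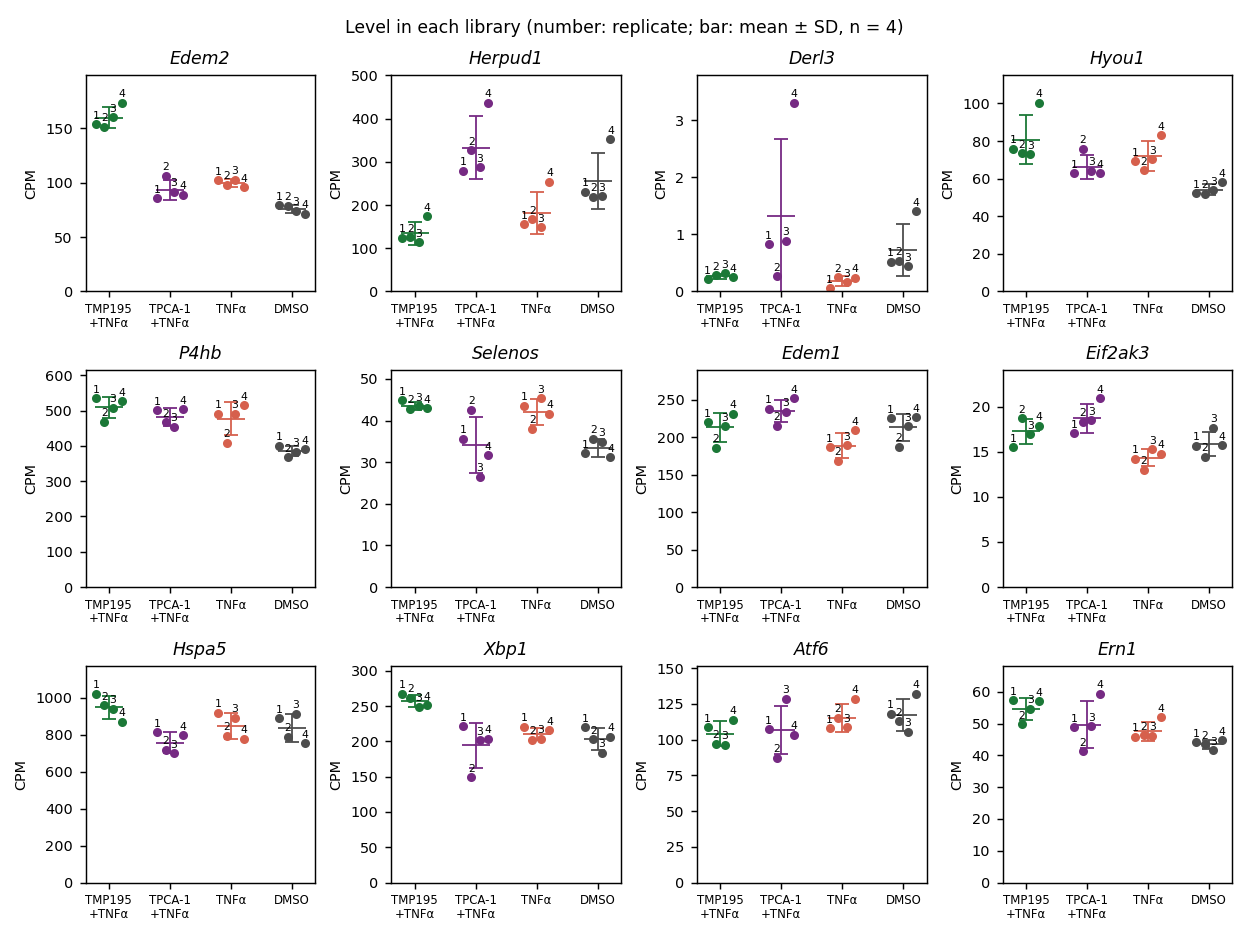
Level in CPM (vertical axes, from 0) of 12 members in each library, by group (horizontal axes), with points numbered by replicate and bars giving the mean ± SD (n = 4). Edem2 sits at 151–173 CPM in TMP195+TNFα, above all other libraries, and replicate 4 is the highest Herpud1 library in each group; the lower Derl3 error bar in TPCA-1+TNFα is cut at 0.

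The next comparison asked what inhibition of class IIa histone deacetylases changed under TNFα. Of the 33 members, 1 passed the test (3.03%), against 5.95% of all genes tested (2.95% higher and 3% lower). It was Edem2, which rose 1.60-fold over TNFα alone. Edem2 had 154, 151, 160.0 and 173 CPM in TMP195+TNFα libraries, against the 95.6–103 CPM in TNFα libraries given above. The groups were far apart, with a log2 change of 0.68 ± 0.09 (adjusted p = 0.000303), and the call held in every leave-out, with an adjusted p of at most 0.00189.

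The sensors and factors kept below the threshold here. Xbp1 had 267, 262, 249 and 251 CPM in TMP195+TNFα libraries, all above the TNFα libraries, at a log2 change of 0.29 ± 0.10 (adjusted p = 0.12). Atf6 had 109, 97.0, 96.3 and 114 CPM in TMP195+TNFα libraries, overlapping the TNFα libraries (-0.15 ± 0.11, adjusted p = 0.59). Ern1 had 57.3, 49.8, 54.7 and 57.1 CPM there, with replicate 2 below the highest TNFα library (0.20 ± 0.10, adjusted p = 0.31). Eif2ak3, at 15.6, 18.8, 17.0 and 17.9 CPM in TMP195+TNFα libraries, stood above every TNFα library, at 0.27 ± 0.11 (adjusted p = 0.16). Hspa5 had 1019.7, 960.0, 939 and 869 CPM in TMP195+TNFα libraries, at 0.16 ± 0.10 over TNFα (adjusted p = 0.40). It was 1 of the 16 of 33 members that were higher with TMP195 in 4 of 4 pairs, where 5 were lower in all 4. Its groups overlapped.

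The largest change among the chaperones was that of Dnajb9, a J-domain partner of Hspa5 that also restrains IRE1. It was chosen for its values here after these were seen, and had 134, 116, 98.2 and 72.5 CPM in TMP195+TNFα libraries and 70.4, 67.2, 57.9 and 48.4 CPM in TNFα libraries. Every TMP195+TNFα library was higher than every TNFα library, at a log2 change of 0.79 ± 0.24, with replicate 1 the highest and replicate 4 the lowest in both groups (adjusted p = 0.0664 without the block and 0.0208 with it). With the block 7 members passed, 4 higher and 3 lower, where 13.5% of all genes tested did (6.91% higher and 6.56% lower). Besides Edem2 and Dnajb9, Xbp1 (adjusted p = 0.0445) and Ssr1 (0.27, adjusted p = 0.0225), a subunit of the complex beside the translocation channel, rose. Herpud1 (-0.42 ± 0.07, adjusted p = 0.00128), Sel1l (-0.33, adjusted p = 0.0124), the adaptor of the HRD1 ligase, and Serp1 (-0.42, adjusted p = 0.0494), which stabilises proteins at the channel, fell.

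Sel1l had 199, 187, 193 and 205 CPM in TMP195+TNFα libraries and 243, 243, 241 and 262 CPM in TNFα libraries, with no overlap. Herpud1 had 124, 125, 114 and 174 CPM in TMP195+TNFα libraries, lower than the TNFα library of the same number in 4 of 4 pairs, by 0.33 to 0.55 on the log2 scale. Replicate 4 was again its highest library, and without the block the difference missed the threshold (-0.43 ± 0.20, adjusted p = 0.26). The unblocked count of 1 was 4 without TPCA-1+TNFα replicate 2, the shallow library, which belongs to neither group compared but is part of the same model, and was 2 without TPCA-1+TNFα replicate 1, TPCA-1+TNFα replicate 4 or TMP195+TNFα replicate 4. Without TPCA-1+TNFα replicate 2 the added calls were Dnajb9 (adjusted p = 0.0286), Sel1l (0.0219) and Xbp1 (0.0269).

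**Figure D3:**
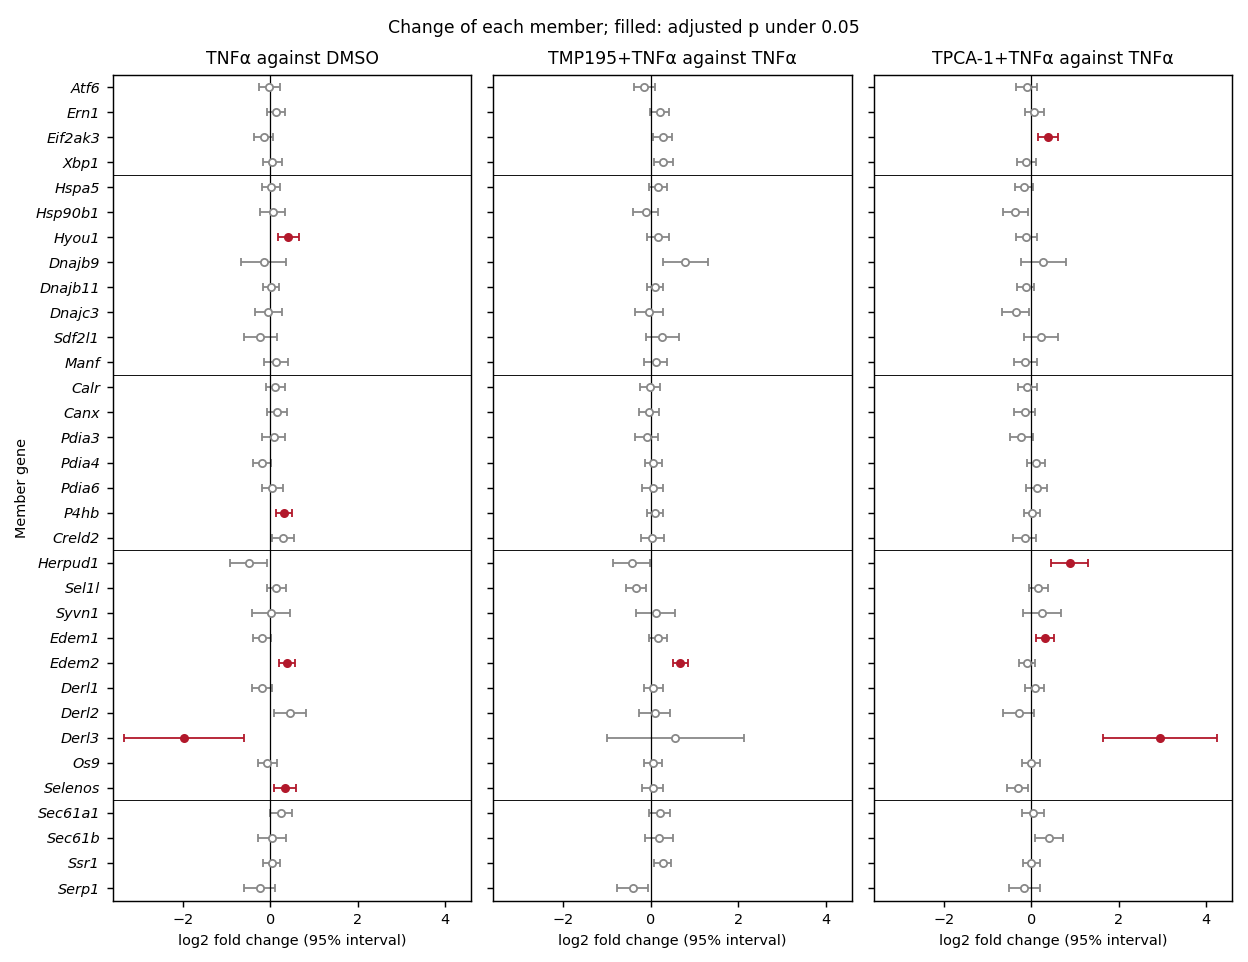
Log2 fold change of each member (down the page, grouped by role) with its 95% interval in 3 comparisons; filled red points passed an adjusted p of 0.05 in edgeR without the block. Nearly all intervals lie within 1 on either side of 0; Derl3 is the widest, and the calls are 5, 1 and 4 in the panels from left to right.

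The third comparison asked what inhibition of IKK2 changed under TNFα. Of the 33 members, 4 passed the test (12.1%), against 19.4% of all genes tested (9.67% higher and 9.72% lower), and all 4 rose: Herpud1, Derl3, Edem1 and Eif2ak3. Herpud1, Derl3 and Edem1 belong to the degradation machinery, whose other 7 members, Edem2 among them, did not pass. Herpud1 and Derl3 had stood lower in TNFα than in DMSO libraries in 4 of 4 pairs of the same number, Herpud1 passing there only with the block. TNFα libraries enter both comparisons, in opposite places.

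Herpud1 had 279, 327, 288 and 437 CPM in TPCA-1+TNFα libraries, against 156, 167, 149 and 254 CPM in TNFα libraries. Every TPCA-1+TNFα library was above every TNFα library, a 1.83-fold difference (log2 change 0.88 ± 0.20, adjusted p = 0.00583) that passed in each leave-out. Derl3 had 17, 2, 18 and 68 reads in TPCA-1+TNFα libraries, or 0.831, 0.270, 0.891 and 3.31 CPM, against 1, 5, 5 and 5 reads in TNFα libraries. Its lowest TPCA-1+TNFα library was the shallow replicate 2, only just above the TNFα libraries, and replicate 4 alone held more reads than the other 3 together. The log2 change was 2.95 ± 0.62 (adjusted p = 0.00277; 0.0179 without TPCA-1+TNFα replicate 4). Edem1, the relative of Edem2, had 238, 216, 234 and 252 CPM in TPCA-1+TNFα libraries, against 187, 169, 189 and 209 CPM in TNFα libraries. The groups did not overlap (0.32 ± 0.10, adjusted p = 0.0298). Eif2ak3 had 17.1, 18.4, 18.5 and 21.0 CPM in TPCA-1+TNFα libraries, all above the TNFα libraries (0.38 ± 0.11, adjusted p = 0.0173).

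The other sensors, Xbp1, Hspa5 and the genes that rose with TNFα did not pass. Hspa5 had 814, 719, 698 and 796 CPM in TPCA-1+TNFα libraries, overlapping the TNFα libraries (-0.16 ± 0.10, adjusted p = 0.26). Xbp1 had 222, 149, 202 and 204 CPM (-0.11 ± 0.11, adjusted p = 0.47), with the shallow replicate 2 the lowest of all 16 libraries. Atf6 had 107, 87.4, 129 and 103 CPM (-0.11 ± 0.11, adjusted p = 0.53), and Ern1 had 48.8, 41.4, 49.2 and 59.4 CPM (0.07 ± 0.10, adjusted p = 0.68). Both were widely spread in this group, with replicate 2 the lowest. Edem2 had 85.4, 106, 91.8 and 88.8 CPM (-0.10 ± 0.09, adjusted p = 0.45), Hyou1 62.8, 75.8, 64.1 and 62.8 CPM (adjusted p = 0.50), P4hb 502, 467, 454 and 504 CPM (adjusted p = 0.92), and Selenos 35.6, 42.6, 26.5 and 31.7 CPM (-0.31 ± 0.12, adjusted p = 0.0720). For each of these 4 genes, which rose with TNFα, the TPCA-1+TNFα libraries overlapped the TNFα libraries.

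The count of 4 was 2 without TNFα replicate 1, TNFα replicate 2 or TPCA-1+TNFα replicate 4, and 7 without TPCA-1+TNFα replicate 1 or TNFα replicate 4; without the shallow TPCA-1+TNFα replicate 2 it was 5, Selenos joining as lower (-0.44, adjusted p = 0.00823). The Edem1 call ended in 5 leave-outs (TNFα replicates 1, 2 and 3 and TPCA-1+TNFα replicates 3 and 4, adjusted p up to 0.105). The Eif2ak3 call ended in 3 (TNFα replicates 1 and 2 and TPCA-1+TNFα replicate 4, up to 0.0770). Both calls also ended with no filter on low counts (adjusted p = 0.161 for Edem1 and 0.138 for Eif2ak3). So they did with only the 2 groups compared (0.081 and 0.0734).

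The inhibitors, which differ in target and are not analogs, were then compared with each other. Of the 33 members, 8 passed (24.2%), against 25.7% of all genes tested (13.1% higher and 12.6% lower). Edem2, Xbp1, Selenos, Hspa5 and Ssr1 were higher with TMP195 than with TPCA-1, and Derl3, Herpud1 and Sel1l were lower. The degradation genes thus split: 2 were higher and 3 lower of the 10. This is the direct test of whether the inhibitors' effects differ, since both are set against the same TNFα libraries.

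Herpud1 differed most among the well-expressed members, with 114–174 CPM in TMP195+TNFα libraries against 279–437 CPM in TPCA-1+TNFα libraries, a log2 difference of -1.31 ± 0.21 (adjusted p = 0.000166). Edem2 differed by 0.78 ± 0.09 (adjusted p = 5.07e-06), and again no libraries overlapped. Sel1l had 269, 225, 269 and 343 CPM in TPCA-1+TNFα libraries, all above the 187–205 CPM of TMP195+TNFα libraries (-0.50, adjusted p = 0.00213). These 3 differences passed in every leave-out. Xbp1 differed by 0.40 ± 0.11 (adjusted p = 0.00884; 0.0133 without the shallow library) and Hspa5 by 0.32 ± 0.10 (adjusted p = 0.0197), the chaperone at 869–1019.7 CPM with TMP195 against 698–814 CPM with TPCA-1. Neither pair of groups overlapped. Selenos (0.36, adjusted p = 0.0327), Ssr1 (0.27, adjusted p = 0.0392) and the scarce Derl3 (-2.38 ± 0.59, adjusted p = 0.00639) completed the list. The count was 5 without TMP195+TNFα replicate 1, TPCA-1+TNFα replicate 3 or TPCA-1+TNFα replicate 4. The Ssr1 call ended in 9 of 16 leave-outs (adjusted p up to 0.10), the shallow library among them, and the Selenos call in 5 (up to 0.0973). The Hspa5 call ended without TMP195+TNFα replicate 1 (adjusted p = 0.0659) or TPCA-1+TNFα replicate 3, and the Derl3 call without TPCA-1+TNFα replicate 4 (adjusted p = 0.0538). With only the 2 groups compared, the calls of Xbp1 (adjusted p = 0.0506), Hspa5 (0.0652), Selenos (0.111) and Ssr1 (0.111) ended.

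Set against DMSO, which asks for the net difference from unstimulated cells, TMP195+TNFα gave the most calls: 11 of 33 members (33.3%), against 27.5% of all genes tested (13.6% higher and 13.9% lower). Edem2 rose 2.10-fold (log2 1.07 ± 0.09, adjusted p = 1.37e-07), the largest change of any member but Derl3. Hyou1 (0.58, adjusted p = 0.000959), P4hb (0.40, adjusted p = 0.00198), Derl2 (0.54, adjusted p = 0.0246), Sec61a1 (0.45, adjusted p = 0.00936), the pore of the translocation channel, and Ssr1 (0.31, adjusted p = 0.0191) also rose. So did Selenos (0.38, adjusted p = 0.0220), the sensor Ern1 (0.33, adjusted p = 0.0213) and the transcription factor Xbp1 (0.34, adjusted p = 0.0224). Herpud1 (-0.93 ± 0.20, adjusted p = 0.00212) and Serp1 (-0.65 ± 0.17, adjusted p = 0.00769) fell. Serp1 had 2942, 2394, 2257 and 1879 CPM in TMP195+TNFα libraries and 4254, 3526, 3577 and 3518 CPM in DMSO libraries, with no overlap. The fit with the block, in which 36.6% of all genes passed (17.9% higher and 18.8% lower), called 14 members, 11 higher and 3 lower. It added Creld2 (0.32, adjusted p = 0.0242), Dnajb9 (0.63, adjusted p = 0.0262) and Derl3 (-1.38, adjusted p = 0.0283). The count was 6 without TMP195+TNFα replicate 1, and the calls of Xbp1, Ern1, Ssr1, Derl2 and Selenos each ended in 3 leave-outs, with adjusted p up to 0.0909. With no filter on low counts the calls of Xbp1 (adjusted p = 0.0757), Ern1 (0.0915), Ssr1 (0.1) and Selenos (0.054) ended too.

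TPCA-1+TNFα against the same DMSO libraries gave 4 calls (12.1%), against 30.3% of all genes tested (14.8% higher and 15.5% lower). P4hb (0.32, adjusted p = 0.00983), Edem2 (0.29, adjusted p = 0.0166), Sel1l (0.30, adjusted p = 0.0393) and Sec61b (0.44, adjusted p = 0.0387), a small subunit of the channel, rose. Herpud1 had 279–437 CPM in TPCA-1+TNFα libraries against 219–352 CPM in DMSO libraries, with overlap (0.38 ± 0.20, adjusted p = 0.17). The count was 2 without TNFα replicate 3, TMP195+TNFα replicate 3, TPCA-1+TNFα replicate 3, TPCA-1+TNFα replicate 4, DMSO replicate 1 or DMSO replicate 2, and 1 without DMSO replicate 3. It was 7 without TPCA-1+TNFα replicate 1 or DMSO replicate 4. The Sel1l call ended in 9 leave-outs (adjusted p up to 0.18), the Sec61b call in 8 (up to 0.121), the shallow TPCA-1+TNFα replicate 2 among them, and the Edem2 call without DMSO replicate 3 (0.0522). With no filter on low counts all 4 calls ended (adjusted p of 0.0518 to 0.161).

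The members with an element in their promoter window were set beside the rest, as a description. In TNFα against DMSO, where 23.4% of all genes passed, 1 of the 11 with an exact ERSE or ERSE-II was called (Derl3, lower), with a median log2 change of 0.02. Of the 17 whose window held neither, 3 rose, with a median of 0.04, and of the 5 without a window 1 rose. With the replicate block, where 32% of all genes passed, the calls were 3 of the 11 (Creld2 higher, Derl3 and Herpud1 lower), 5 of the 17 and 1 of the 5. In TMP195+TNFα against TNFα, where 5.95% of all genes passed, the calls were 0 of the 11, 1 of the 17 (higher) and 0 of the 5. The medians were 0.04, 0.18 and 0.11. With the block, where 13.5% of all genes passed, these were 1 of the 11 (Herpud1, lower), 6 of the 17 (4 higher and 2 lower) and 0 of the 5. In TPCA-1+TNFα against TNFα, where 19.4% of all genes passed, the 11 had a median of -0.13, with Herpud1 and Derl3 rising, the 17 a median of 0.02, with 2 rising, and the 5 a median of -0.11. In TMP195+TNFα against DMSO, where 27.5% of all genes passed, 1 of the 11 was called (Herpud1, lower), 8 of the 17 (7 higher and 1 lower) and 2 of the 5 (both higher). With the block, where 36.6% of all genes passed, these were 3 of the 11 (Creld2 higher, Derl3 and Herpud1 lower), 9 of the 17 and 2 of the 5.

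The other lists of genes put the members in their surroundings. In TNFα against DMSO, where 10.9% of all genes tested were higher and 12.4% lower, the other ER folding and oxidation genes gave 3 higher and 3 lower of 31, and ER-associated degradation gave 4 higher of 23. Dnajc10, an ER disulfide reductase, had the smallest adjusted p of the folding list, with 183 ± 8.50 CPM in TNFα libraries and 89.4 ± 9.89 CPM in DMSO libraries (SD, n = 4 each; log2 change 1.03 ± 0.12, adjusted p = 5.16e-06 in edgeR). Vcp, the ATPase that extracts proteins from the ER, rose by 0.35 on the log2 scale (adjusted p = 0.00188). The translocon, signal peptidase and oligosaccharyl transferase list gave 1 higher of 33 (Srp72), ER to Golgi transport gave 8 higher of 30, led by Sec22b (0.76, adjusted p = 1.23e-05), and the regulators of IRE1, ATF6 and PERK gave 3 higher and 1 lower of 25. The list of cytosolic heat shock genes gave 7 higher and 1 lower of 23, Hsp90aa1 rising by 0.79 (adjusted p = 0.00125). ATF4 and integrated stress response genes gave 7 higher of 28, with Slc7a11, the cystine transporter, at 502 ± 43.7 CPM in TNFα libraries and 25.6 ± 8.97 CPM in DMSO libraries (adjusted p = 6.03e-09).

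Targets of the ATF4 arm are excluded from the 33 members, although Eif2ak3, the kinase that raises ATF4, is a member. In TMP195+TNFα against TNFα the ATF4 and integrated stress response list gave 7 higher of 28 (25.0%), against 2.95% of all genes tested. Its median log2 change was 0.46, where the 33 members had a median of 0.10 and all genes 0.02. Trib3, a pseudokinase, Asns, which makes asparagine, and Mthfd2, of mitochondrial folate metabolism, had the smallest adjusted p (2.16, 1.07 and 0.80; adjusted p = 0.0120, 0.0123 and 0.0198). Ddit3, which encodes CHOP, had 56.9 ± 5.00 CPM in TMP195+TNFα libraries and 33.2 ± 1.66 CPM in TNFα libraries (0.78 ± 0.20, adjusted p = 0.0295). Atf4 itself missed the threshold there (0.54, adjusted p = 0.0634). In TPCA-1+TNFα against TNFα the list gave 4 higher and 2 lower of 28, where 9.67% of all genes were higher and 9.72% lower, with Atf3 and Ddit4 rising (1.17 and 1.84, adjusted p = 0.000247 and 0.00155) and Slc7a11 falling (-1.07, adjusted p = 0.00317). Against DMSO it gave 21 higher of 28 in TMP195+TNFα libraries and 17 higher of 28 in TPCA-1+TNFα libraries, where 13.6% and 14.8% of all genes tested were higher, with Atf4 higher in both (1.04, adjusted p = 0.000137, and 0.69, adjusted p = 0.00463).

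Among the folding genes outside the set, Pdia5, a disulfide isomerase, rose with TMP195 over TNFα (8.66 ± 2.02 CPM in TMP195+TNFα libraries and 4.09 ± 0.928 CPM in TNFα libraries, adjusted p = 0.00673), and Ppic and Uggt1, the glucosyltransferase that checks folding, fell (-0.57 and -0.33, adjusted p = 0.0131 and 0.0310). Creb3l2, an ER-anchored transcription factor, rose by 1.03 (adjusted p = 0.00788). Lman1 and Sec23b, of ER to Golgi transport, rose with TMP195 (0.45 and 0.34, adjusted p = 0.0123 and 0.0139), and Lman1 and Sec22b fell with TPCA-1 (-0.39 and -0.38, adjusted p = 0.0118 and 0.00968). Of the 23 cytosolic heat shock genes, 4 rose and 1 fell with TPCA-1 over TNFα, where 9.67% of all genes rose and 9.72% fell, the inducible Hspa1a at 5.37 ± 3.78 CPM in TPCA-1+TNFα libraries and 0.658 ± 0.206 CPM in TNFα libraries (adjusted p = 2.74e-05). In the same comparison Eif2ak2, an interferon-induced kinase of the regulator list, fell (-1.76, adjusted p = 8.72e-07).

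**Figure D4:**
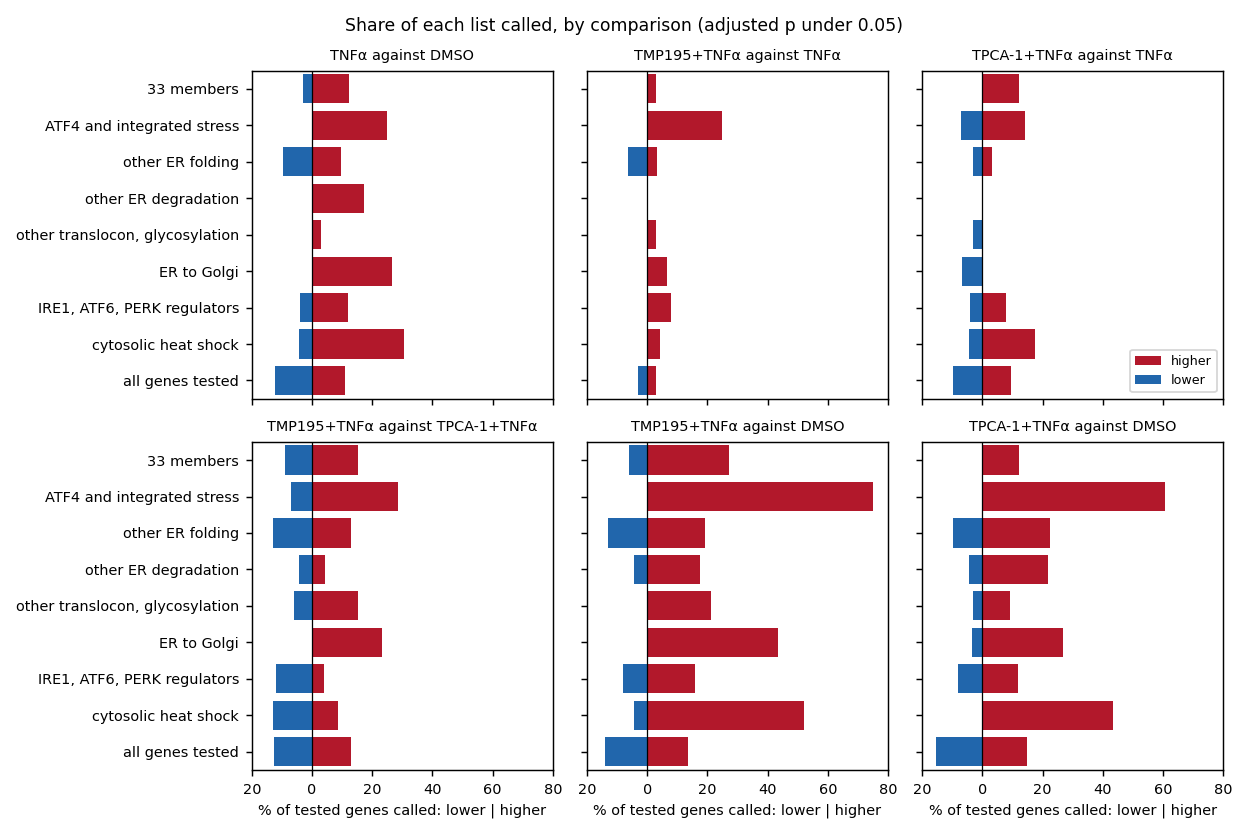
Share of the tested genes of each list that passed an adjusted p of 0.05 (horizontal axis, percent; red to the right higher, blue to the left lower) in the 6 comparisons, with the 33 members at the top and all genes tested at the bottom of each panel. The members' bars reach 27.3% higher at most, in TMP195+TNFα against DMSO, while the ATF4 and integrated stress response list reaches 75.0% there.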

How the data were processed

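RNA of 16 libraries was sequenced by the authors, and the deposited files hold raw read counts per gene and library, from STAR 2.6.1d with mm10 and GRCm38 named, per the submitters' processing notes. The annotation release is not given in the sources used here; GENCODE M21 matched 54809 of the 54838 gene identifiers, leaving 29 without a symbol. Of the 3 count columns per file (both strands together, and each strand alone), the one of the strand that held most reads was used in every library; the other strand held 3.19–3.72% of the stranded counts. STAR's 4 summary entries (such as unmapped reads, 4.0–44.0% of a library) belong to no gene and entered neither library sizes nor tests.

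Genes were filtered with filterByExpr, scaled by TMM and tested with edgeR 4.0.16 (glmQLFit and glmQLFTest, 2-sided, R 4.3.3) in 1 model of all 16 libraries. P-values were adjusted by Benjamini-Hochberg over 12612 genes, with a threshold of 0.05. Intervals are 95%. The script was tested on simulated data. On the TMM-scaled CPM scale 3 counts were worth 0.0985 to 0.405, and only Derl3 lay near this limit of depth. Replicate libraries of a group differed beyond sampling noise (chi-square per gene 13.6–75.7 over 24 pairs).

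Replicate numbers are given in the labels. Same-numbered libraries of DMSO, TNFα and TMP195+TNFα deviated together from their group means (12 correlations of 0.27 to 0.68, all above 0.1), so the numbers were taken to pair these groups. The 12 correlations with TPCA-1+TNFα libraries ran from -0.043 to 0.51, so the numbers were not taken to pair that group. Those under 0.1 were of the shallow replicate 2 with DMSO, TNFα and TMP195+TNFα (0.020, -0.043 and -0.0066) and of replicate 4 with TMP195+TNFα (0.086). Those of replicate 1 were 0.37, 0.51 and 0.50. The low values thus lie mostly with 1 library, and pairing of the others is not excluded.

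Alternatives were 16 leave-outs of a library, no filter, DESeq2 size factors (RLE), counts of both strands, the replicate block, limma-voom with quality weights (limma 3.58.1), DESeq2 1.42.0, and fits on the 2 groups compared. The members, role groups and gene lists were chosen with earlier results of these data known. Values per library are given for members past the threshold in at least 1 of the first 3 comparisons and for Hspa5, Xbp1, Atf6 and Ern1; Dnajb9, Sel1l and Serp1 were added after their values were seen. From other lists up to 3 genes with the smallest adjusted p are named. Hsp90b1, Pdia4, Syvn1, Atf6, Eif2ak3 and Manf overlap another gene on the same strand in GENCODE M21, so reads there could be split or discarded. The level of 1 marker gene is not reported here.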

Additional observations from a re-analysis of the deposited data

Results flagged for a closer look

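In 11 of the 132 sets of 4 libraries (33 members in 4 groups), the highest or lowest library stood apart from the other 3 by Dixon's test at the 95% level; chance flags about 1 in 20 such sets. In TMP195+TNFα libraries, Hyou1 was high in replicate 4 (100.3 CPM, the others 73.0–75.9). In TPCA-1+TNFα libraries, Hyou1 was high in the shallow replicate 2 (75.8 CPM, the others 62.8–64.1). In TNFα libraries, Pdia3 was high in replicate 1 (1182 CPM, the others 957–989), Sel1l and Ern1 were high in replicate 4 (262 CPM against 241–243, and 52.0 CPM against 45.9–46.3), and Derl2 was low in replicate 3 (102 CPM, the others 124–128). In DMSO libraries, Herpud1 and Derl3 were high in replicate 4 (352 CPM against 219–231, and 1.40 CPM against 0.447–0.542). Manf and Serp1 were high in DMSO replicate 1 (233 CPM against 207–211, and 4254 CPM against 3518–3577), and Pdia4 was low in DMSO replicate 2 (121 CPM, the others 139–141).

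The effects of the inhibitors over the same TNFα libraries differed for 8 members by edgeR's test of TMP195+TNFα against TPCA-1+TNFα. The effect of TMP195 minus that of TPCA-1, in log2, was 0.78 for Edem2, 0.40 for Xbp1, 0.36 for Selenos, 0.32 for Hspa5 and 0.27 for Ssr1. It was -2.38 for Derl3, -1.31 for Herpud1 and -0.50 for Sel1l.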

How the results depend on the processing

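No member changed direction past the threshold under the alternatives run. The count of members called in TMP195+TNFα against DMSO (11) stayed within 1.5 times of its value under every alternative but the leave-outs. In TNFα against DMSO it was 5, and 3 with no filter, 3 with counts of both strands and 8 with limma-voom. In TMP195+TNFα against TNFα it was 1, and 2 with no filter, 6 with limma-voom, 3 with DESeq2 and 3 with only the 2 groups compared. In TPCA-1+TNFα against TNFα it was 4, and 2 with no filter, 8 with limma-voom and 1 with only the 2 groups compared. In TMP195+TNFα against TPCA-1+TNFα it was 8, and 3 with only the 2 groups compared. In TPCA-1+TNFα against DMSO it was 4, and 1 with no filter (Dnajc3, lower at -0.43, adjusted p = 0.0439, and none of the 4), 12 with limma-voom and 2 with only the 2 groups compared. Leaving out each replicate gave 3 to 6, 1 to 4, 2 to 7, 5 to 12, 6 to 12 and 1 to 7 calls, for TNFα against DMSO, TMP195+TNFα against TNFα, TPCA-1+TNFα against TNFα, TMP195+TNFα against TPCA-1+TNFα, TMP195+TNFα against DMSO and TPCA-1+TNFα against DMSO. Derl3 did not pass the filter in fits on only the 2 groups compared other than TPCA-1+TNFα against DMSO. The cause of the other shifts was not tested.

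With the replicate block the counts were 9 for TNFα against DMSO, 7 for TMP195+TNFα against TNFα and 14 for TMP195+TNFα against DMSO. In these the numbers were taken to pair the libraries. The counts were 8 for TPCA-1+TNFα against TNFα, 11 for TMP195+TNFα against TPCA-1+TNFα and 10 for TPCA-1+TNFα against DMSO. In those the numbers were not taken to pair them. The block ended none of the calls made without it. Depth limits mainly Derl3, at 1 to 68 reads per library.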
